A study of Mus musculus with 7 samples.

Results

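*Gata4*, *Gata6*, *Sox17*, *Sox7*, *Dab2*, *Pdgfra* and *Sparc* are genes of the primitive endoderm, and their levels were read from the RNA-Seq of cells reprogrammed in mES or 5C medium and of the naïve and primed cells made from them. The members were chosen by name, with earlier results of these data known. The 7 symbols were matched to the Ensembl identifiers of the deposited tables and make up 7 of the 29267 genes measured. A share of all genes set beside a count of members or list genes is therefore a description and not a test. All 7 members were above 0 in each of the 7 libraries. 6 of the 7 were at least 2-fold higher in mES-Oct4GFP- cells than in 5C-Oct4GFP- cells, as were 10.1% of all genes compared and 6 of 10 fibroblast markers. In the primed libraries *Sox17* and *Gata6* were higher than in any other library, with 60.4 and 28.8 TPM after conversion of 5C-Oct4GFP+ cells, whereas *Gata4* and *Dab2* were highest in mES-Oct4GFP- cells, with 33.0 and 103 TPM.

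The primitive endoderm is the layer that separates from the epiblast in the inner cell mass of the blastocyst and later forms the visceral and parietal endoderm of the yolk sacs. FGF4 made by epiblast cells acts through FGF receptors on neighbouring cells, which then express GATA6 and, in turn, SOX17, GATA4 and SOX7, while NANOG opposes this fate. None of the members is exclusive to this layer. *Gata6* and *Sox17* are also expressed in definitive endoderm, *Gata4* and *Gata6* in heart precursors, *Sox7* and *Sox17* in endothelium, and *Pdgfra* and *Sparc* in fibroblasts.

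4 libraries came from OG2 mouse embryonic fibroblasts, infected with retroviruses for *Oct4*, *Sox2*, *Klf4* and *c-Myc* and sorted by FACS on day 15 at passage 0. These fibroblasts carry an *egfp* reporter driven by the *Oct4* promoter and its distal enhancer. A cell without the reporter signal therefore need not lack *Oct4* RNA. Cells grown in mES medium, which contains serum, LIF and vitamin C, gave the mES-Oct4GFP+ and mES-Oct4GFP- libraries. Cells grown in the serum-free 5C medium, with N2, bFGF, LIF, vitamin C and β-mercaptoethanol, gave the 5C-Oct4GFP+ and 5C-Oct4GFP- libraries. Sorted 5C-Oct4GFP+ cells transferred to naïve medium (LIF and 2i) or primed medium gave the 5C-Oct4GFP+ (naïve) and 5C-Oct4GFP+ (primed) libraries at passage 20. The paper reports that the GFP signal was lost in primed medium. The name of the converted primed library therefore gives the origin of its cells and not their reporter state. R1 ESCs-primed, an embryonic stem cell line without the retroviral factors, was induced to the primed state on fibroblast feeder cells. It was then kept on serum-coated plates in primed medium with CHIR99021 and IWR-1 in place of bFGF and activin A. It was also taken at passage 20. The paper's Methods describe this replacement for the R1 cells and do not state it for the converted cells. An Oct4GFP- fraction holds every cell without the fluorescent reporter, so it is a mixture and not a cell type. There was 1 library per group and no replicate, so no test between groups was possible and every interval below covers the counting of reads only, at 95%.

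The estimated counts summed to between 6108252 and 11496615 per library. TPM divides the reads of a gene by its length and gives every library an equal total, so that levels can be compared between genes. Levels were read for 10 genes listed as fibroblast markers. Among them are *Col1a1*, *Prrx1*, and also *Twist1* and *Twist2*, which the paper counts as mesenchymal markers. The level of these 10 markers in R1 ESCs-primed, induced on fibroblast feeder cells, was above both Oct4GFP+ libraries sorted from fibroblast cultures. The source of this RNA was not tested. The summed level was 617 TPM in mES-Oct4GFP-, 292 in 5C-Oct4GFP-, 254 in R1 ESCs-primed and 87.4 in 5C-Oct4GFP+ (primed), and between 11.2 and 15.1 TPM in the other 3 libraries, in which no more than 5 of the 10 reached 1 TPM. *Nanog*, the epiblast factor, named here after its values were seen, had 17.1 TPM in mES-Oct4GFP- cells and between 118 and 735 TPM in the other 6 libraries. These are measurements on bulk RNA, in which fewer cells of a type and less RNA per cell cannot be told apart.

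*Gata4* (ENSMUSG00000021944, chr14:63198922-63271692, minus strand, GRCm38), a zinc finger factor of extraembryonic endoderm and heart, was highest in mES-Oct4GFP- cells. It had 33.0 TPM there, 7.57 in R1 ESCs-primed, 4.19 in 5C-Oct4GFP+ (primed) cells, 2.48 in the 5C-Oct4GFP- fraction, 0.80 in the mES-Oct4GFP+ fraction, and 0.58 and 0.37 TPM in 5C-Oct4GFP+ (naïve) and unconverted 5C-Oct4GFP+ cells. mES-Oct4GFP- cells were 4.36-fold (3.46 to 5.55) above the next library, R1 ESCs-primed. The intervals of the ratios among the 3 lowest libraries, with 3 to 7 reads each, held 1, so their order was not resolved at this depth.

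*Gata6* (ENSMUSG00000005836), the zinc finger factor that marks the earliest primitive endoderm, was highest in the primed libraries. The converted 5C-Oct4GFP+ (primed) cells had 28.8 TPM, R1 ESCs-primed 18.1, mES-Oct4GFP- cells 10.5, 5C-Oct4GFP- cells 2.10, mES-Oct4GFP+ cells 1.83, 5C-Oct4GFP+ cells 0.56 and 5C-Oct4GFP+ (naïve) cells 0.41 TPM. R1 ESCs-primed were 1.72-fold (1.39 to 2.13) above mES-Oct4GFP- cells.

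*Sox17* (ENSMUSG00000025902, chr1:4490931-4497354, minus strand), an HMG box factor of primitive and definitive endoderm, followed the same order over the 3 highest libraries. The 5C-Oct4GFP+ (primed) cells had 60.4 TPM, R1 ESCs-primed 35.3, mES-Oct4GFP- cells 18.2, 5C-Oct4GFP- cells 2.57, mES-Oct4GFP+ cells 1.67, 5C-Oct4GFP+ (naïve) cells 0.94 and 5C-Oct4GFP+ cells 0.59 TPM. The last 3 rested on 3 to 8 reads. *Sox7* (ENSMUSG00000063060, chr14:63943673-63950732, plus strand), its relative of the same SoxF subfamily, had 2.18 TPM in mES-Oct4GFP- cells, 0.51 and 0.49 in the 5C-Oct4GFP- and 5C-Oct4GFP+ fractions, 0.40 in R1 ESCs-primed, 0.35 in 5C-Oct4GFP+ (primed) cells, 0.13 in their naïve counterpart and 0.09 in mES-Oct4GFP+ cells. *Sox7* therefore stood apart only in mES-Oct4GFP- cells (31 reads), and its ratios between neighbouring libraries all had intervals that held 1 below that. The primed libraries, where *Sox17* was highest, had 7 and 5 reads of *Sox7*.

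*Dab2* (ENSMUSG00000022150, chr15:6299788-6440712, plus strand) encodes an endocytic adaptor that sorts cargo and keeps the apical side of extraembryonic endoderm cells ordered. The mES-Oct4GFP- cells had 103 TPM, 5C-Oct4GFP- cells 10.8, R1 ESCs-primed 10.2, 5C-Oct4GFP+ (primed) cells 7.03, mES-Oct4GFP+ cells 5.78, 5C-Oct4GFP+ (naïve) cells 1.77 and 5C-Oct4GFP+ cells 1.12 TPM. mES-Oct4GFP- cells were 9.53-fold (8.09 to 11.3) above 5C-Oct4GFP- cells, the next in order. 5C-Oct4GFP- cells and R1 ESCs-primed differed by 1.06-fold (0.842 to 1.33).

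*Pdgfra* (ENSMUSG00000029231, chr5:75152292-75198215, plus strand) encodes the receptor for PDGF-A through which primitive endoderm cells survive and sort, and it is a receptor of fibroblasts as well. Its level was low throughout, 4.99 TPM in mES-Oct4GFP- cells, 3.04 in R1 ESCs-primed, 2.04 in 5C-Oct4GFP+ (primed) cells, 1.16 in mES-Oct4GFP+ cells, 1.08 in 5C-Oct4GFP- cells, 0.91 in 5C-Oct4GFP+ (naïve) cells and 0.27 in 5C-Oct4GFP+ cells. The lowest value, in 5C-Oct4GFP+ cells, was 3.38-fold (1.60 to 7.81) under that of 5C-Oct4GFP+ (naïve) cells.

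*Sparc* (ENSMUSG00000018593, chr11:55394500-55423183, minus strand) encodes a secreted matrix protein made in quantity by parietal endoderm and by fibroblasts. It was the most abundant member in each library, with 893 and 585 TPM in the mES-Oct4GFP- and 5C-Oct4GFP- fractions, 239 in 5C-Oct4GFP+ (naïve) cells, 219 in R1 ESCs-primed, 216 in 5C-Oct4GFP+ (primed) cells, 195 in 5C-Oct4GFP+ cells and 165 in mES-Oct4GFP+ cells. Its highest value was 5.40 times its lowest, the narrowest range of the members, against 92.1 times for *Dab2* and 102 times for *Sox17*. Outside the 2 Oct4GFP- libraries *Sparc* lay between 165 and 239 TPM.

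**Figure D1:**
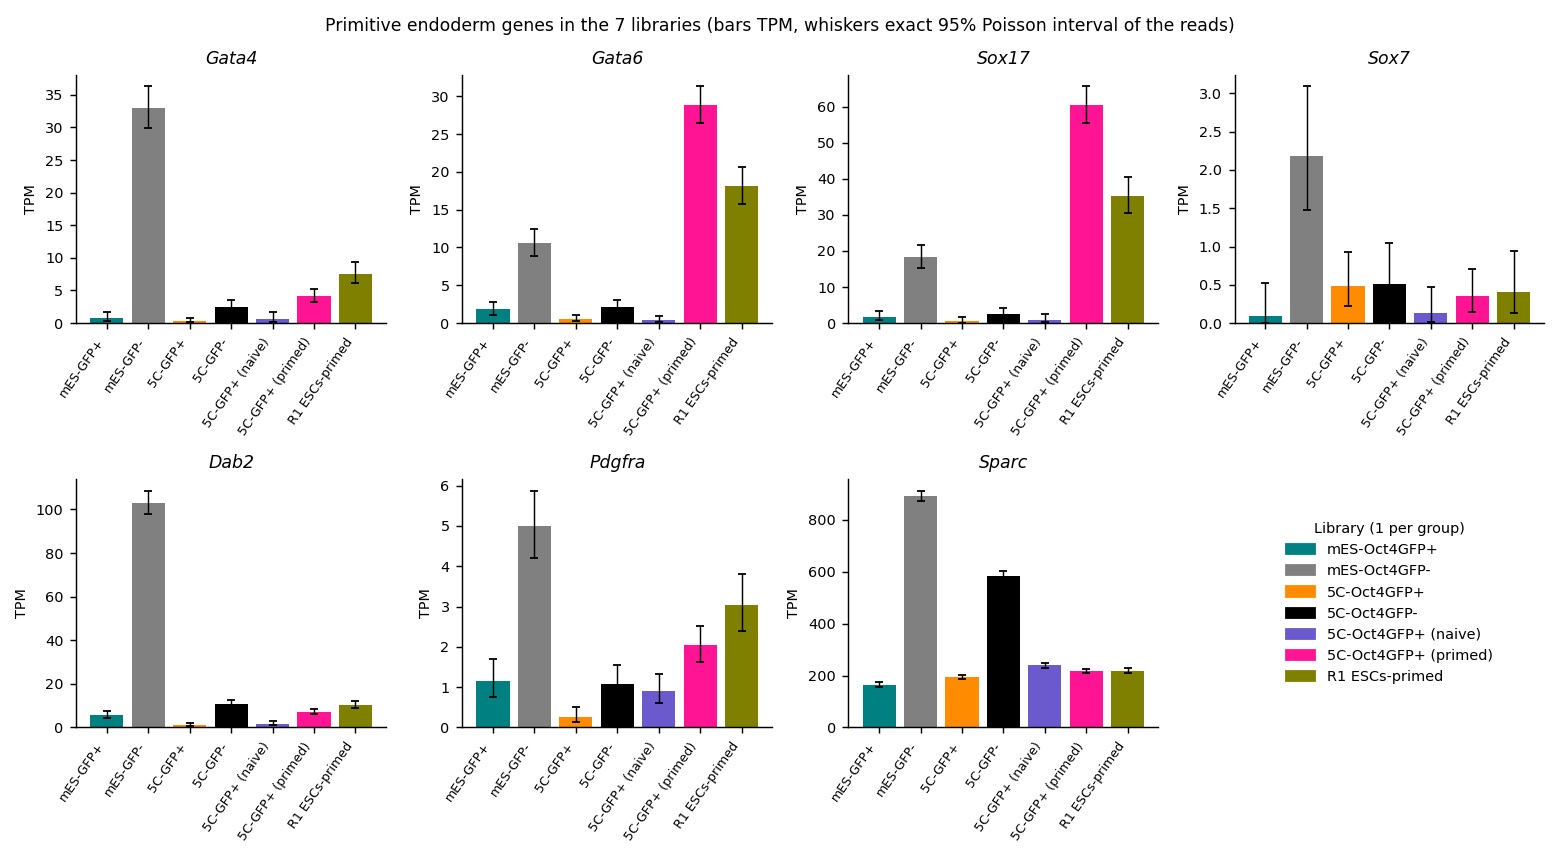
TPM of each member (1 panel per gene, linear axis from 0) in the 7 libraries, with exact 95% Poisson intervals of the reads as whiskers. *Gata4*, *Sox7*, *Dab2*, *Pdgfra* and *Sparc* were highest in mES-Oct4GFP- cells, and *Gata6* and *Sox17* in 5C-Oct4GFP+ (primed) cells.

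Promoter sequences of *Gata4*, *Gata6*, *Sox17* and *Sox7* were not available here. The stretch before the start site is therefore shown only for the 3 members found among the RefSeq (GRCm38.p6) promoters used, *Dab2*, *Pdgfra* and *Sparc*. Each is the 250 bases before a start, 5′ to 3′ on the gene's strand, and capitals mark the GATA motif, searched on both strands as the letters AGATAA or as AGATAG, and likewise with a first T as TGATAA or as TGATAG.
Dab2, chr15:6299539-6299788, plus strand: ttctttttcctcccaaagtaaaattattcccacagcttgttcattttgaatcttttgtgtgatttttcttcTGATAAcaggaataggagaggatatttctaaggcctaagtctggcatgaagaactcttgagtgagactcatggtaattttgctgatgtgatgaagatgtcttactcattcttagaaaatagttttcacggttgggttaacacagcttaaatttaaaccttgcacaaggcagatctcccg
Sparc, chr11:55420081-55420330, minus strand: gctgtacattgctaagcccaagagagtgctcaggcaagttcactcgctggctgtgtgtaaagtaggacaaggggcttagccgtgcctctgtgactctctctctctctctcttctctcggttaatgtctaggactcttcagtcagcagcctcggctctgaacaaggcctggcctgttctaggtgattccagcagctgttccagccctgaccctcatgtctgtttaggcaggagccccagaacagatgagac
Pdgfra, chr5:75152001-75152250, plus strand: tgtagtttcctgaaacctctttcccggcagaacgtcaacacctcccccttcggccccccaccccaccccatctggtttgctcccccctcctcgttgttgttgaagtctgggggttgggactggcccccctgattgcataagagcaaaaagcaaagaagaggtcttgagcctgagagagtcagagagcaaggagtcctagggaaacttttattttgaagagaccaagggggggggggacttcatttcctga
The *Dab2* stretch held 1 match, TGATAA, from 179 to 174 bases before the start, and the *Sparc* and *Pdgfra* stretches, like the stretch before a second RefSeq start of *Dab2*, held none. A match was present in 26.5% of all 32851 RefSeq stretches of this length. The SOX core ACAAT, searched on both strands, was in none of the stretches of these 3 genes and in 27.7% of all of them. The *Sparc* stretch, before its RefSeq start, lies inside the GENCODE span of the gene given above, so the bases before the outer end of that span were not searched. A match is a description of the letters and no match says nothing about binding.

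The comparisons below used the difference of log2(TPM + 1), on which low genes differ by less than their true fold, and took in the genes that reached 1 TPM in one of the libraries compared. A gene was counted as higher or lower at a 2-fold difference on that scale. Several comparisons share a library, and each is therefore given with its own values. The first question was how the fraction sorted by the reporter differed within each medium. All 7 members were lower in mES-Oct4GFP+ than in mES-Oct4GFP- cells, whereas 28.8% of the 16294 genes compared were lower and 17.9% were higher. The median difference was -2.43 for the members and -0.15 for all genes compared. *Gata4* was 41.0-fold lower (19.7 to 103), *Dab2* 17.8-fold (13.4 to 24.4), *Sox17* 10.9-fold (5.38 to 25.8), *Gata6* 5.76-fold (3.56 to 9.84), *Sparc* 5.41-fold (5.08 to 5.76) and *Pdgfra* 4.32-fold (2.81 to 6.89). *Sox7* rested on 1 read in mES-Oct4GFP+ cells, a ratio of 0.0427 (0.00105 to 0.257). All 10 fibroblast markers were lower in the Oct4GFP+ fraction as well, and their part in the result was not tested.

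In 5C medium fewer members passed the limit, and the difference between the media was not tested. 4 members were lower in 5C-Oct4GFP+ than in 5C-Oct4GFP- cells and none was higher, against 22.6% and 8.45% of the 15675 genes compared. *Dab2* was 9.67-fold lower (5.85 to 17.0), *Gata4* 6.67-fold (2.89 to 17.9), *Sox17* 4.35-fold (1.23 to 23.4) and *Sparc* 3.0-fold (2.85 to 3.15). *Gata6* lay just short of the limit, with a difference of -0.99 (-1.43 to -0.45), and *Pdgfra* had -0.71 (-0.99 to -0.36). *Sox7*, under 1 TPM in both libraries, was not counted. With FPKM the count fell to 2, since *Gata4* had a difference of -0.92 and *Sox17* one of -0.81, and it was also 2 with a minimum of 5 TPM. It rose to 6 with a pseudocount of 0.1 and to 6 at a limit of 1.5-fold. In mES medium the count was 7 at both of these settings, 6 with FPKM and 5 with the minimum of 5 TPM. Of the 10 fibroblast markers 9 were lower in the Oct4GFP+ fraction, and their part was not tested here either.

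The second question was how the medium differed within each sorted fraction. Among Oct4GFP- cells, 6 of the 7 members were lower in 5C than in mES medium and none was higher, against 10.1% and 9.68% of the 15859 genes compared. The median difference was -1.90 for the members and 0.03 for all genes compared. *Gata4* was 13.3-fold lower in 5C-Oct4GFP- cells (9.29 to 19.7), *Dab2* 9.53-fold (8.09 to 11.3), *Sox17* 7.09-fold (4.15 to 13), *Gata6* 5.01-fold (3.33 to 7.80), *Pdgfra* 4.60-fold (3.09 to 7.07) and *Sox7* 4.28-fold (1.85 to 11.5). *Sparc* was the exception at 1.53-fold lower (1.47 to 1.58). Of the 10 fibroblast markers 6 were lower in 5C medium and 1, *Thy1*, was higher, with *Col1a1* 3.55-fold lower (3.32 to 3.8) and *Prrx1* 4.77-fold lower (4.20 to 5.44). Their part in the result was not tested.

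Among Oct4GFP+ cells *Dab2* alone of the members was lower in 5C medium and none was higher, against 13.5% and 13.7% of the 15196 genes compared. *Dab2* was 5.17-fold lower (2.91 to 9.59). *Gata6* and *Pdgfra* were 3.26-fold (1.44 to 7.84) and 4.28-fold (1.98 to 9.97) lower in TPM but stayed under the limit on log2(TPM + 1), with differences of -0.86 and -0.77. *Sox17* had a ratio of 0.353 (0.0604 to 1.47) and a difference of -0.75. The count of 1 became 4 with a pseudocount of 0.1 and also 4 at a limit of 1.5-fold. *Sparc* was 1.18-fold higher (1.10 to 1.27). *Gata4* and *Sox7* were under 1 TPM in both libraries.

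The third question was how cells in naïve or primed medium differed from the 5C-Oct4GFP+ cells they came from. The converted cells were at passage 20 and the 5C-Oct4GFP+ cells at passage 0, so medium and passage cannot be told apart in these comparisons. In naïve medium no member passed the limit in either direction, against 10.0% of the 14863 genes compared that were higher and 17.5% that were lower. *Dab2* and *Sparc*, the only members at 1 TPM or more in either library, had differences of 0.39 (-0.22 to 0.96) and 0.29 (0.21 to 0.38). *Pdgfra* was 3.38-fold higher in TPM from 10 and 28 reads, and the *Gata4*, *Gata6*, *Sox17* and *Sox7* ratios had intervals that held 1, which means that no difference was detectable at this depth.

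In primed medium 5 members were higher than in 5C-Oct4GFP+ cells and none was lower, against 13.7% and 16.1% of the 15067 genes compared. The median difference was 1.92 for the members that were compared and 0.06 for all genes. *Sox17* was 102-fold higher (34.9 to 498, from 3 reads in 5C-Oct4GFP+ cells), *Gata6* 51.4-fold (27.7 to 108), *Gata4* 11.3-fold (5.21 to 29.1), *Pdgfra* 7.53-fold (3.90 to 16.3) and *Dab2* 6.29-fold (3.79 to 11.1). *Sparc* was 1.11-fold higher (1.05 to 1.17), and *Sox7* had a ratio of 0.706 (0.223 to 2.13). With a minimum of 5 TPM the count was 3, without *Gata4* and *Pdgfra*. *Gata4*, *Gata6*, *Sox17*, *Dab2* and *Pdgfra* are among the primed markers that the study chose from this RNA-Seq, so their direction in primed cells is not independent evidence. Of the fibroblast markers, 9 of 10 were higher too, with *Col1a1* 8.91-fold higher (6.65 to 12.2), and their part in the result was not tested.

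Against 5C-Oct4GFP+ (naïve) cells, 4 members were higher in 5C-Oct4GFP+ (primed) cells and none was lower, against 22.2% and 16.7% of the 15249 genes compared. *Gata6* was 70.8-fold higher (32.3 to 194), *Sox17* 64.3-fold (25.0 to 237), *Gata4* 7.18-fold (2.36 to 35.6) and *Dab2* 3.97-fold (2.43 to 6.89). *Pdgfra* had a difference of 0.67 (0.31 to 0.99) and *Sparc* one of -0.14 (-0.22 to -0.06). *Sox7*, under 1 TPM in both libraries, was not counted and had a ratio of 2.63 (0.500 to 25.9). Of the fibroblast markers 9 of 10 were higher in the primed cells and 1 was lower, and their part was not tested.

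The last question was how the converted primed cells compared with R1 ESCs-primed, which were never reprogrammed. No member passed 2-fold in either direction, against 2.30% of the 14600 genes compared that were higher and 5.09% that were lower. *Sox17* was 1.71-fold (1.46 to 2.02) and *Gata6* 1.60-fold (1.36 to 1.87) higher in the converted cells, while the ratio of converted cells to R1 ESCs-primed was 0.554 for *Gata4* (0.400 to 0.765), 0.669 for *Pdgfra* (0.484 to 0.925) and 0.688 for *Dab2* (0.544 to 0.869). *Sparc* had a ratio of 0.987 (0.93 to 1.05). *Sox7*, under 1 TPM in both libraries, was not counted and had a ratio of 0.856 (0.234 to 3.42). At a limit of 1.5-fold 2 members were higher and 1 was lower. 9 of the 10 fibroblast markers were lower in the converted cells, with *Col1a1* 3.04-fold lower (2.72 to 3.40).

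**Figure D2:**
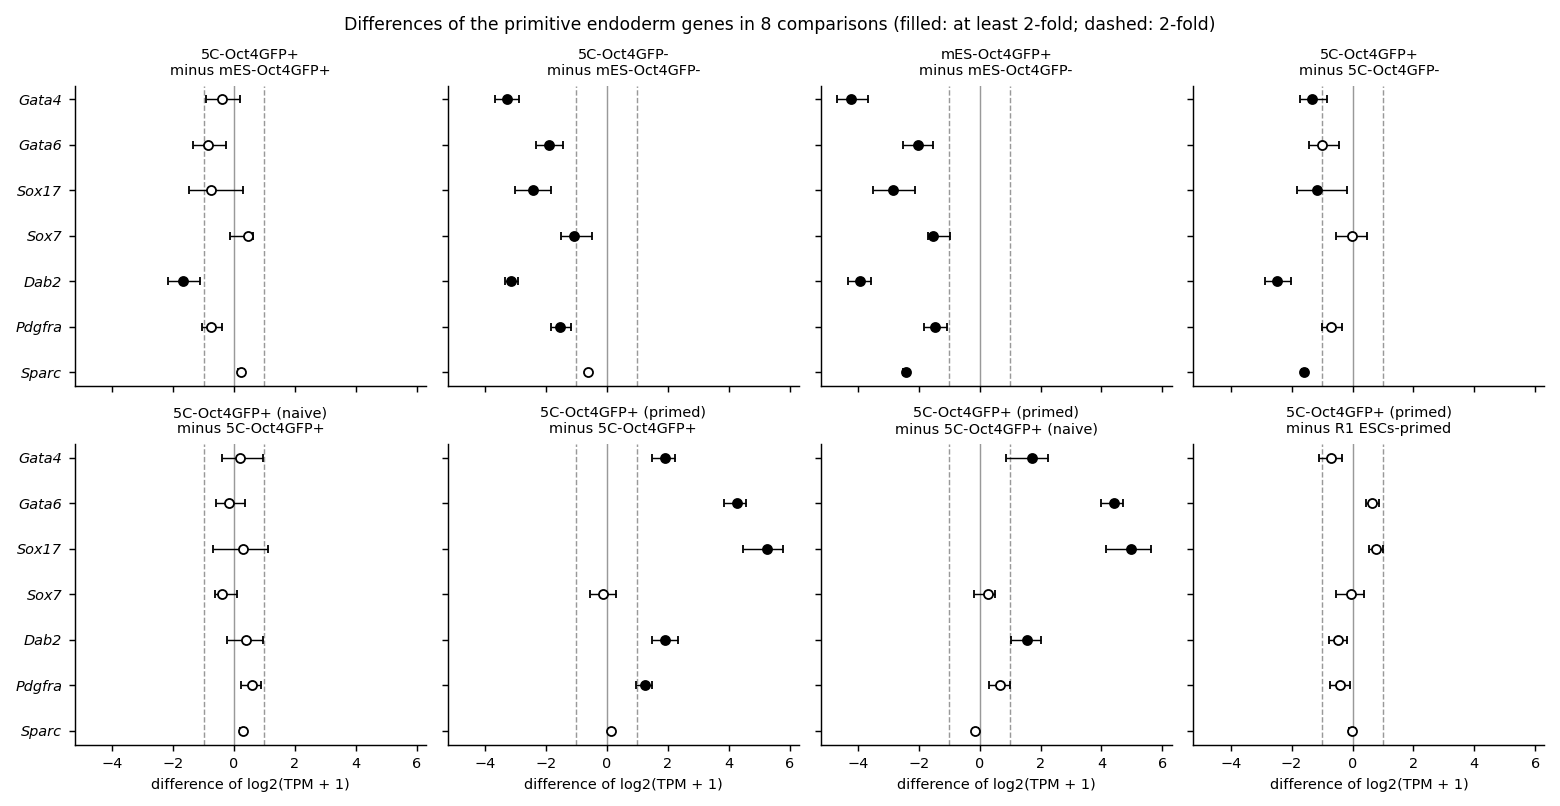
Difference of log2(TPM + 1) for each member in the 8 comparisons (1 panel each, first library minus second), with 95% counting intervals as whiskers, dashed lines at 2-fold and filled points for members past that limit. The points lie left of 0 for all 7 members in mES-Oct4GFP+ minus mES-Oct4GFP- cells, and *Gata6* and *Sox17* lie farthest right in 5C-Oct4GFP+ (primed) minus 5C-Oct4GFP+ cells, at 4.26 and 5.27.

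The factors stood in a different order inside the libraries where they were abundant. In mES-Oct4GFP- cells the level of *Gata4* was 3.13 times that of *Gata6* (2.59 to 3.81), whereas in 5C-Oct4GFP+ (primed) cells it was 0.145 times (0.112 to 0.186) and in R1 ESCs-primed 0.419 times (0.323 to 0.539). *Sox17* was 0.552 times *Gata4* (0.452 to 0.671) in mES-Oct4GFP- cells, 14.4 times (11.3 to 18.7) in 5C-Oct4GFP+ (primed) cells and 4.66 times (3.62 to 6.05) in R1 ESCs-primed. The ratio of *Sox17* to *Gata6* was closer between these libraries, at 1.73 (1.36 to 2.20), 2.10 (1.86 to 2.36) and 1.95 (1.61 to 2.37). In 5C-Oct4GFP- cells the 3 factors had between 2.10 and 2.57 TPM, and the intervals of all 3 ratios held 1.

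**Figure D3:**
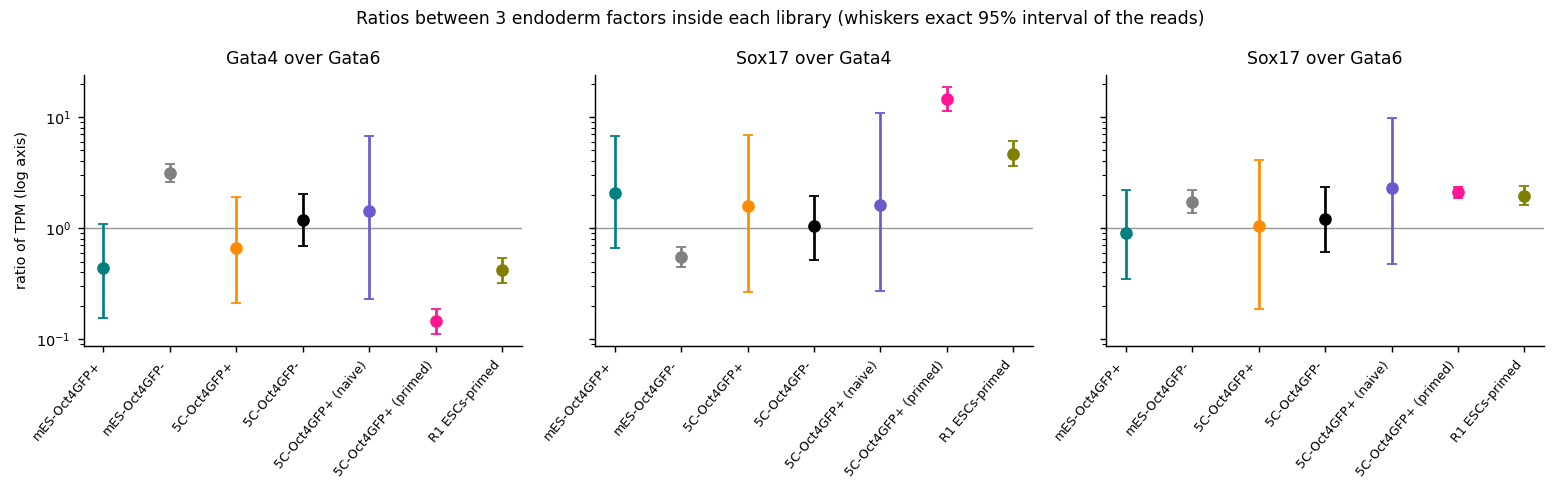
Ratio of TPM between pairs of *Gata4*, *Gata6* and *Sox17* inside each library (log axis, line at 1), with exact 95% intervals of the reads. *Gata4* over *Gata6* was above 1 in mES-Oct4GFP- cells, at 3.13, and below 1 in both primed libraries, while *Sox17* over *Gata6* was between 1.73 and 2.10 in the same 3 libraries.

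The genes that act beside or after the members were read from lists of named genes, which were also chosen with earlier results of these data known. The 10 secreted products of the visceral endoderm, the outer layer that feeds the embryo, include the serum carriers *Afp*, *Ttr*, *Rbp4* and the apolipoproteins. All 10 reached 1 TPM in mES-Oct4GFP- cells, against 4 in 5C-Oct4GFP- cells and 1 in mES-Oct4GFP+ cells. *Rbp4*, the retinol carrier, had 177 TPM in mES-Oct4GFP- cells, 7.67 in 5C-Oct4GFP+ (primed) cells, 6.68 in R1 ESCs-primed, 1.64 in 5C-Oct4GFP- cells and at most 0.70 in the other 3 libraries. *Apoa1*, of the lipoprotein shell, had 61.3 TPM there, 2.31 and 1.35 in the primed libraries and no read in the other 4. *Ttr*, the thyroid hormone carrier, had 36.0 TPM there and 0.20 or less elsewhere.

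Between the Oct4GFP- fractions, 8 of the 10 products were lower in 5C medium and 1, the iron carrier *Trf*, was higher, while *Ihh* did not pass the limit. Of all genes compared 10.1% were lower and 9.68% were higher. *Rbp4* was 108-fold lower (49.4 to 296). *Apoa1* had no read in 5C-Oct4GFP- cells and was at least 64.9-fold lower against a floor of 3 reads. In mES medium 8 of the 10, again all except *Trf* and *Ihh*, were lower in the Oct4GFP+ fraction, against 28.8% of all genes compared. *Apoa1* was at least 50.7-fold lower and *Ttr* at least 45.8-fold. *Afp*, *Apob* and *Hnf4a*, named here after their values were seen, had 19.3, 35.2 and 7.73 TPM in mES-Oct4GFP- cells and 0, 0.02 and 0.33 TPM in 5C-Oct4GFP- cells. In 5C-Oct4GFP+ (primed) cells 4 of the products were above 5C-Oct4GFP+ cells and 1, *Trf*, was below, with 0.32 against 11.3 TPM. Of all genes compared 13.7% were higher and 16.1% were lower. The summed level of the list there, 526 TPM, was mainly *Cer1*, with 497 TPM. *Cer1* encodes an inhibitor of Nodal made by the anterior visceral endoderm and also by the anterior definitive endoderm.

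The endocytic receptors of the visceral endoderm, which take up what *Dab2* sorts, were read next. *Amn* had 13.6 TPM in mES-Oct4GFP- cells, 2.10 in R1 ESCs-primed and 1.31 or less elsewhere. *Lrp2*, which encodes megalin, had 13.2 TPM in the 5C-Oct4GFP- fraction, 11.1 in mES-Oct4GFP- cells, 10.5 in 5C-Oct4GFP+ (primed) cells, 7.16 in R1 ESCs-primed, and between 1.95 and 7.49 in the other libraries. Of the 3 receptor genes, 2 (*Amn* and *Cubn*) were lower in 5C medium between the Oct4GFP- fractions, and all 3 were lower in the Oct4GFP+ fraction of mES medium. The shares of all genes compared were 10.1% and 28.8%.

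Other endoderm transcription factors were also abundant in the primed libraries. 5 of the 6 were higher in 5C-Oct4GFP+ (primed) than in 5C-Oct4GFP+ cells, all except *Hnf4a*, against 13.7% of all genes compared. The paper used *Foxa2*, as well as *Cer1* and *T* of the other lists, as markers of the primed state. *Eomes*, a T-box factor of mesendoderm, had 115 TPM in R1 ESCs-primed and 81.2 in 5C-Oct4GFP+ (primed) cells and between 0.60 and 10.3 in the others. *Foxa2*, a forkhead factor of endoderm and axial mesoderm, had 106 TPM in R1 ESCs-primed and 82.9 in 5C-Oct4GFP+ (primed) cells, 7.54 in mES-Oct4GFP-, 6.22 in 5C-Oct4GFP- and at most 1.20 in the others. *Foxa2* and *Foxa1* differed from the members between the Oct4GFP- libraries, with ratios of 5C to mES medium of 0.825 (0.559 to 1.21) and 0.966 (0.661 to 1.41). The other 4 of the 6 factors were lower in 5C medium, against 10.1% of all genes compared.

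Of the definitive endoderm and mesendoderm markers, 5 of 6 were higher in 5C-Oct4GFP+ (primed) than in 5C-Oct4GFP+ cells, against 13.7% of all genes compared. Their summed level was 455 TPM in 5C-Oct4GFP+ (primed) cells and 640.0 in R1 ESCs-primed, against 3.33 to 66.7 TPM in the other 5 libraries. *T*, the mesoderm factor Brachyury, had 374 TPM in R1 ESCs-primed and 155 in 5C-Oct4GFP+ (primed) cells, *Gsc* had 92.5 and 107, *Lhx1* 104 and 131, and *Mixl1* 36.5 and 16.1. In mES-Oct4GFP- cells these 4 had 9.96, 3.23, 10.9 and 0.71 TPM, and *Mesp1* was under 1 TPM in every library. The chemokine receptor gene *Cxcr4* had 45.1 TPM in 5C-Oct4GFP+ (primed) cells, 36.7 in 5C-Oct4GFP- cells and 32.9 in R1 ESCs-primed. The primed libraries, with the most *Gata6* and *Sox17*, also had the most of the mesendoderm markers other than *Cxcr4* and *Mesp1*, and mES-Oct4GFP- cells, with the most *Gata4* and *Dab2*, had the most of the visceral endoderm products other than *Cer1*, *Trf* and *Bmp2*.

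**Figure D4:**
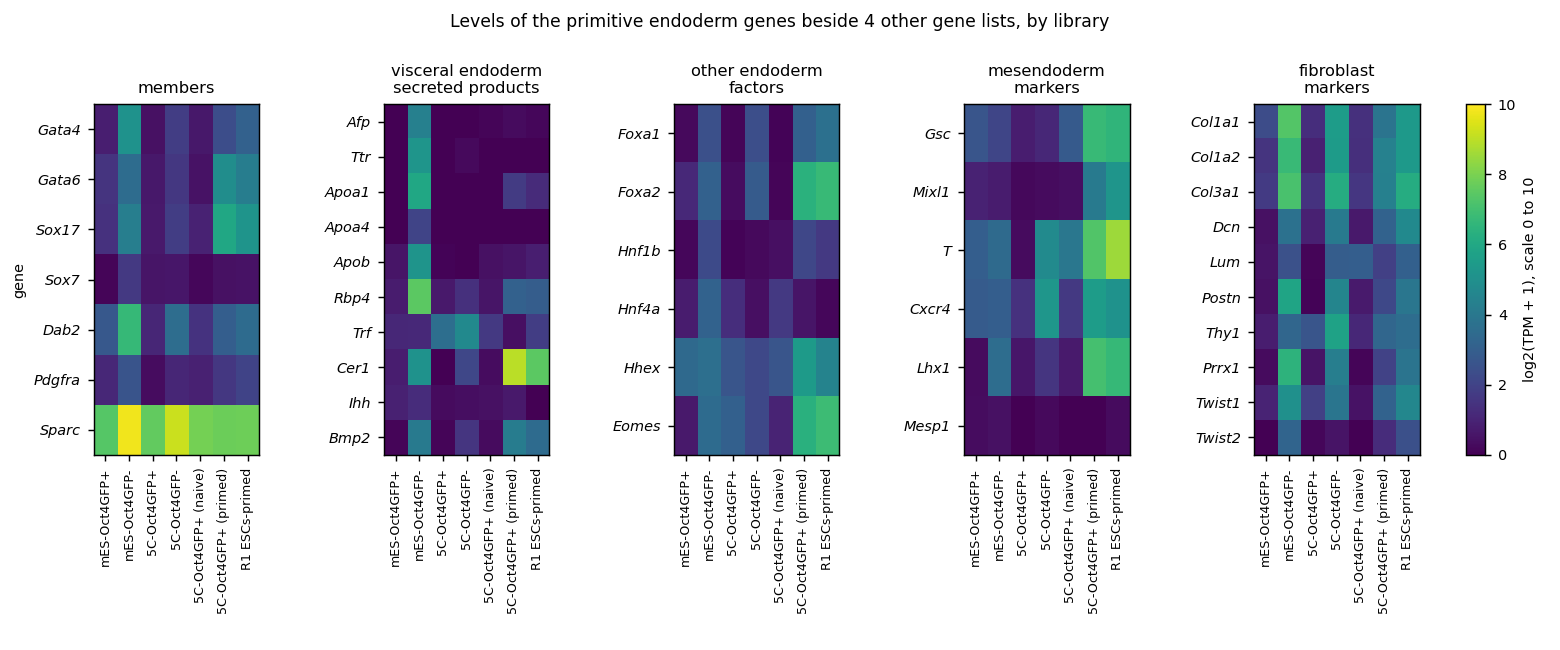
log2(TPM + 1) of the 7 members and of 4 gene lists (1 panel each, genes in rows, the 7 libraries in columns, colour scale from 0 to 10). *Afp*, *Ttr*, *Apoa1*, *Apob* and *Rbp4* are bright in the mES-Oct4GFP- column, *Foxa2*, *Eomes*, *Gsc* and *Lhx1* in the 2 primed columns, and the fibroblast markers in both Oct4GFP- columns and the R1 ESCs-primed column, with means of 5.13, 4.33 and 4.32, and less so in the 5C-Oct4GFP+ (primed) column, with 2.94.

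Basement membrane genes, whose products lie beside SPARC in the matrix, were read in the same way. 4 of the 7 basement membrane genes were lower in the Oct4GFP+ fraction of mES medium, and 4 in that of 5C medium, against 28.8% and 22.6% of all genes compared. *Col4a1* and *Col4a2*, the chains of type IV collagen, had 289 and 193 TPM in mES-Oct4GFP- cells, 191 and 125 in 5C-Oct4GFP- cells, between 10.6 and 45.9 TPM in 5C-Oct4GFP+ cells and the primed libraries, and at most 1.24 TPM in the mES-Oct4GFP+ and naïve libraries. Between the Oct4GFP- fractions none of the 7 was lower in 5C medium, and *Lama1*, a laminin chain of embryonic basement membranes, was 3.19-fold higher (2.95 to 3.45). Of all genes compared 10.1% were lower and 9.68% were higher there. *Lamb1*, the partner chain of *Lama1*, had 134 TPM in R1 ESCs-primed, 102 in mES-Oct4GFP-, 98.5 in 5C-Oct4GFP+ (primed) and 77.6 in 5C-Oct4GFP- cells and between 12.8 and 29.2 in the others.

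All 4 parietal endoderm genes were lower in mES-Oct4GFP+ than in mES-Oct4GFP- cells, against 28.8% of all genes compared. Between the Oct4GFP- fractions 1 of them, *Pth1r*, was lower in 5C medium, against 10.1% of all genes compared. *Plat*, the tissue plasminogen activator, had 22.7 TPM in R1 ESCs-primed, 16.1 in mES-Oct4GFP- cells, 11.3 in 5C-Oct4GFP+ (primed) cells, 10.6 in 5C-Oct4GFP- cells, and at most 1.22 in the others. *Thbd*, which encodes thrombomodulin, had 8.57 and 6.23 TPM in the Oct4GFP- libraries and at most 3.28 elsewhere. *Fst*, an activin antagonist, was highest in R1 ESCs-primed at 74.3 TPM.

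Of the 4 genes of the FGF signal upstream of *Gata6*, *Fgf4* had the widest range. This ligand had 199 TPM in 5C-Oct4GFP+ cells, 104 in mES-Oct4GFP+ cells and 95.7 in the naïve library, where *Gata6* had 1.83 TPM or less. The other 4 libraries had between 6.93 TPM, in 5C-Oct4GFP+ (primed) cells, and 19.3 TPM, in mES-Oct4GFP- cells. Among these, 5C-Oct4GFP- cells had 10.3 TPM of *Fgf4* and only 2.10 TPM of *Gata6*. That *Gata6* level was not resolved from the one in mES-Oct4GFP+ cells, with a ratio of 1.15 (0.620 to 2.18). The receptor *Fgfr2* was 3.81-fold higher (2.60 to 5.74) in mES-Oct4GFP- than in mES-Oct4GFP+ cells, with 19.4 and 5.03 TPM. *Fgfr1* lay between 54.6 and 149 TPM, and *Grb2*, the adaptor that links receptor to RAS, between 61.0 and 110 TPM. None of the 4 passed 2-fold between the Oct4GFP- libraries, against 10.1% of all genes compared that were lower in 5C medium and 9.68% that were higher.

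Markers of other cell types that use some of the members also differed between these libraries. In mES-Oct4GFP- cells all 10 fibroblast markers were at least 1 TPM and 9 were at least 5 TPM. All 10 were lower in mES-Oct4GFP+ cells, against 28.8% of all genes compared. The 6 cardiac mesoderm markers summed to 110 TPM in mES-Oct4GFP- cells, to 26.9 in 5C-Oct4GFP- cells and to 0.73 to 10.7 TPM in the others, with *Hand1* at 42.6 TPM in mES-Oct4GFP- and 0.56 or less in the others, and *Nkx2-5*, the defining factor of the list, at 1.09 or less. *Myl7*, an atrial myosin light chain, had 36.0 TPM in mES-Oct4GFP- cells, against 3.63 for the 5C-Oct4GFP- fraction. *Tnnt2* went the other way, with 16.0 TPM in mES-Oct4GFP- and 19.3 TPM in 5C-Oct4GFP- cells, where it made up most of the cardiac sum. The 6 endothelial markers summed to 42.1 TPM in mES-Oct4GFP- cells and 48.1 in 5C-Oct4GFP- cells, and *Tek*, an angiopoietin receptor, made up 40.4 TPM of the latter. *Cdh5*, the endothelial cadherin, had 7.07 TPM in mES-Oct4GFP- cells and at most 1.14 elsewhere. Their part in the levels of *Gata4*, *Gata6*, *Sox17*, *Sox7* and *Pdgfra* was not tested. The 7 pluripotent markers did not move together. In mES medium 3 were higher and 3 lower in the Oct4GFP+ fraction, against 17.9% and 28.8% of all genes compared. Between the Oct4GFP- fractions 3 were higher and 1 was lower in 5C medium, against 9.68% and 10.1%. *Zfp42* and *Esrrb*, markers of the naïve state, had 1.31 and 1.26 TPM in mES-Oct4GFP- cells and 14.1 and 15.3 TPM in 5C-Oct4GFP- cells. *Pou5f1*, which encodes Oct4, and *Sox2*, both also supplied by the retroviruses and named after their values were seen, had 3640 and 498 TPM in mES-Oct4GFP- cells, against 1534 and 680 TPM for the 5C-Oct4GFP- fraction.

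The profiles nearest to those of the members were found over the 7 libraries by the root mean square distance of log2(TPM + 1), each gene centred on its own mean. *Prss12* and *Lsp1* lay nearest to *Gata4* (distances 0.22 and 0.32), with 18.0 and 19.9 TPM in mES-Oct4GFP- cells. *Tph1* and *Coch* were nearest to *Gata6* (0.31 and 0.37), with 27.0 and 18.5 TPM in 5C-Oct4GFP+ (primed) cells. *Foxq1* was near to *Sox17* (0.22), with 42.0 TPM in the same library. *Npnt* and *Ecm1* were nearest to *Dab2* (0.41 and 0.45), with 49.8 and 189 TPM in mES-Oct4GFP- cells, and *Gramd4* and *Ctif* to *Sparc* (0.16 each). *Sox7* and *Pdgfra* never reached the 5 TPM set for this search. The distances describe 7 points, each a single library.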

How the data were processed

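RNA was measured in 7 libraries, 1 per group. The authors extracted RNA with TRIzol, prepared libraries with a TruSeq kit that does not mark strand, sequenced them on a MiSeq and estimated abundances with RSEM. The submitters' processing notes also name Bowtie and the build mm10, with no versions. The expected counts in the deposited tables are unscaled estimates of the reads of each Ensembl gene. The authors' TPM divide them by effective length and equalise the library totals. The FPKM values were also deposited by the authors and served here as an alternative.

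Symbols were matched to 28756 of 29267 identifiers, and coordinates were those of GENCODE M21 (GRCm38). Expected counts were rounded to whole numbers for exact Clopper-Pearson intervals of ratios and Poisson intervals of levels, at 95%, which cover counting error only. For a gene without reads the floor was 3 reads. Comparisons took in genes that reached 1 TPM in one of the libraries compared, on log2(TPM + 1), with a 2-fold limit. The scripts were tested on simulated data.

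All 7 members were described in every library. List genes were described by counts, and by value where they reached 5 TPM in any library, at most 4 a list by the range of log2(TPM + 1), and the 2 nearest profiles were named for members that reached 5 TPM, except 1 that is not reported here. The members and lists were chosen with earlier results of these data known. *Gata6* shares up to 93 exonic bases with *1010001N08Rik* on the other strand, and *Sox17* 804 with *Gm37587*, and their reads cannot be told apart without strand. These genes reached at most 1.73 and 0.15 TPM. *Pdgfra* shares 341 bases with *Gm42802* and 166 with *Gm42803*, and *Dab2* 211 with the pseudogene *Gm18888*, which were not analysed here, so reads of these could have been counted for the members. Alternatives were a pseudocount of 0.1, FPKM, counts scaled to library totals, median-ratio rescaling, a minimum of 5 TPM, no minimum and a limit of 1.5-fold. The software was scipy 1.17.1, pandas 2.3.3, numpy 2.4.6 and matplotlib 3.10.9 under Python 3.11.15.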

Additional observations from a re-analysis of the deposited data

Results flagged for a closer look

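*Sparc* was the 1 member whose difference between media pointed in opposite directions in the sorted fractions with both counting intervals clear of 1. Its TPM in 5C medium was 1.18 times that in mES medium among Oct4GFP+ cells (1.10 to 1.27) and 0.656 times among Oct4GFP- cells (0.633 to 0.679). With 1 library per group this difference was not tested, and both ratios were under 2-fold.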

How the results depend on the processing

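For the 6 counts of members past the limit that were above 0, 31 of 36 recomputed values stayed within 1.5 times the main count. For the 10 counts of 0, 58 of 60 were 0 again, which says little about stability. Among Oct4GFP+ cells the number lower in 5C medium went from 1 to 4 with a pseudocount of 0.1 and to 4 at a limit of 1.5-fold. In 5C medium the number lower in the Oct4GFP+ fraction went from 4 to 2 with FPKM and to 2 with a minimum of 5 TPM. It was 6 with a pseudocount of 0.1 and 6 at a limit of 1.5-fold. With that minimum the number higher in 5C-Oct4GFP+ (primed) than in 5C-Oct4GFP+ cells went from 5 to 3, because *Gata4* and *Pdgfra* stayed under 5 TPM in both libraries. At 1.5-fold, 2 members were higher and 1 was lower in 5C-Oct4GFP+ (primed) cells than in R1 ESCs-primed, against none. No member that passed 2-fold changed direction under any alternative run for single members. 6 of the 224 alternative values had another sign, all for differences between -0.02 and 0.21. Median-ratio rescaling shifted all genes by 0.16 between 5C-Oct4GFP+ and 5C-Oct4GFP- cells and by -0.13 between primed and naïve cells, and by less than 0.1 elsewhere. No paired analysis was possible because each group had 1 library. Depth limited *Sox7*, with 1 to 31 reads per library, and *Gata4*, *Gata6* and *Sox17* in the Oct4GFP+ libraries and the naïve library, with 3 to 19 reads.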

Other observations

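Relatives and ligands of the members had their own patterns. *Pdgfa*, the main ligand of *Pdgfra*, had between 74.5 and 132 TPM in the 5 libraries outside the primed state, and 17.5 and 16.3 TPM in 5C-Oct4GFP+ (primed) cells and R1 ESCs-primed. It was 4.26-fold lower (3.53 to 5.16) in 5C-Oct4GFP+ (primed) than in 5C-Oct4GFP+ cells, while *Pdgfra* was 7.53-fold higher. *Dab1*, the relative of *Dab2* known from neurons, had 47.2 and 41.0 TPM in the primed libraries, 25.7 in 5C-Oct4GFP-, 8.46 in 5C-Oct4GFP+, 4.61 in mES-Oct4GFP-, 3.84 in 5C-Oct4GFP+ (naïve) and 1.41 in mES-Oct4GFP+ cells. Between the Oct4GFP- libraries *Dab1* was 5.57-fold higher (4.36 to 7.18) in 5C medium, where *Dab2* was 9.53-fold lower. *Sparcl1* was highest in R1 ESCs-primed at 16.7 TPM, and *Pdgfrb* in mES-Oct4GFP- cells at 10.3 TPM. Of the 10 genes of this list, 4 were lower and 1 was higher in 5C medium between the Oct4GFP- fractions, against 10.1% and 9.68% of all genes compared.

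RSEM's mean transcript length, weighted by isoform, ran from 2226 to 3986 bases for *Dab2* and from 1160 to 3374 for *Gata4*, the ends for *Gata4* resting on 3 and 7 reads. Each member was highest in the same library whether by TPM or by counts scaled to library totals.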
